A study of Gallus gallus with 6 samples.

Results

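Troponin is the calcium switch of striated muscle, and its genes were followed here over 6 Affymetrix arrays of chicken tissue. Of the 7 subunit genes looked for, 6 had at least 1 probe set with that single symbol in the platform's gene annotation: TNNT3, TNNI2 and TNNC2 (fast skeletal), TNNI1 (slow skeletal), TNNT2 (cardiac) and TNNC1 (shared by slow fibres and heart). TNNT1, the slow troponin T, had no probe set listed under its symbol and was not analysed here. These 6 of 13009 genes with a named probe set had 8 probe sets, since TNNT3 and TNNI1 had 2 each, and all 8 passed the filter on low values.

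Adipose tissue and liver had 1 array each, and the other 4 arrays held mixed tissues, mix 1 to mix 4, whose content the labels do not name. All came from male birds of the meat-type line Arbor Acres aged 49 days, with feed at will and a corn and soybean diet. The labels speak of 21 tissues taken at slaughter and do not say how many birds are behind an array or whether the RNA was pooled. In a mix each tissue dilutes the others, so fewer muscle cells and less RNA per cell cannot be told apart, and neither can be told apart from a smaller share of muscle in the mix.

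A troponin complex has 3 parts. Troponin T anchors it to tropomyosin on the actin filament, troponin I holds contraction off, and troponin C binds calcium and releases that block. Fast skeletal fibres, slow skeletal fibres and heart build the complex from different sets of genes, though slow fibres and heart share TNNC1. Smooth muscle contracts without troponin and is switched through calmodulin and myosin light chain kinase. The breast of a broiler is made up almost wholly of fast fibres.

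The deposited values are MAS5 signal intensities. The median over 38439 probe sets was 48 on adipose and 27 on liver, against 44.8 to 58.1 on the mixes, and the median over all arrays pooled was 44.1, used here as a mark for a faint signal. On the labelled tissues, all 8 hepatocyte genes of a fixed list were brightest on liver (ALB 15031, FGB 14452, APOH 13866 and APOA4 13188), and 5 of 6 adipocyte genes on adipose (PLIN1 11033, FABP4 18285, LPL 10403 and CIDEC 7455). The exception was ADIPOQ, at 4236 on adipose and 4824 on mix 1. Both lists were chosen with earlier results of these data known, so these counts are no independent check of the labels. The shares of all probe sets brightest on liver or adipose were not counted. Differences and levels on a log2 scale are of log2(intensity + 13.3), the added 13.3 being the 25th percentile over the 6 arrays, so a difference against a faint array is understated.

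The 3 fast genes were brightest on mix 4 by a wide margin, followed by mix 3 and mix 2. TNNT3, which ties the fast complex to tropomyosin, gave an intensity of 178 on adipose and 23.1 on liver, against 68.5, 717.9, 2040 and 11517 on mix 1, 2, 3 and 4. TNNI2, the fast inhibitory subunit, gave 74.3 on adipose and 5.7 on liver, against 15.2, 330.3, 606 and 9526 on the mixes. TNNC2, the fast calcium sensor, gave 33 on adipose and 2.3 on liver, against 22.4, 340.6, 702 and 8935 on the mixes. Each of the 3 ran from mix 4 through mix 3 and mix 2 to adipose, mix 1 and liver, though the lower end of this order is faint: liver lay under 44.1 for all 3, mix 1 for TNNI2 and TNNC2, and adipose for TNNC2. The other probe set of TNNT3 gave the same order, with those 3 arrays under 44.1, at 30.4 on adipose and 3.9 on liver, against 7.6, 125, 466 and 7176 on the mixes. Of all 25958 probe sets tested, 0.601% stood in that order. The order was read from these same genes, so this share is no test of it.

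The fast troponins on mix 4 exceeded the next brightest array, mix 3, by 5.65 times in intensity for TNNT3, 15.7 times for TNNI2 and 12.7 times for TNNC2. The 2 probe sets of TNNT3 differed in this: the brighter gave 5.65 times between mix 4 and mix 3 and the other 15.4 times. The brighter one stood at 11517 on mix 4, where the highest intensity of any probe set was 15770, and a part of the scanner's ceiling in that gap was not tested.

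TNNI1, the inhibitory subunit of slow skeletal fibres, was spread over the mixes in another way. It gave 1.5 on adipose and 9.9 on liver, against 25.1, 147.6, 35.3 and 749 on mix 1, 2, 3 and 4. Here mix 2 and not mix 3 came next to mix 4, and adipose, liver, mix 1 and mix 3 all lay under the mark for a faint signal. Its other probe set was faint throughout, at 4.5 on adipose and 19.3 on liver, against 5.4, 47.3, 10.4 and 59.8 on the mixes. The excess of mix 4 over mix 2 was 5.08 times by the brighter probe set and 1.26 times by the other.

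TNNT2, the cardiac troponin T, was bright on mix 2 alone. It gave 10.4 on adipose and 2.9 on liver, against 6.3, 2663, 1 and 16 on mix 1, 2, 3 and 4. The 5 other arrays all lay under the mark for a faint signal, so that the order among them carries no meaning. Mix 4, which was brightest for the other 5 troponin genes, had 16 for TNNT2.

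TNNC1 is the calcium sensor of both slow fibres and heart, and it was the 1 troponin gene with a signal above 44.1 on all 6 arrays. It gave 129 on adipose and 1203 on liver, against 45, 4594, 1010 and 9697 on mix 1, 2, 3 and 4. Mix 4 was 2.11 times as bright as mix 2. On liver it came after mix 4 and mix 2, just over mix 3 (1.19 times) and 26.7 times over mix 1.

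**Figure D1:**
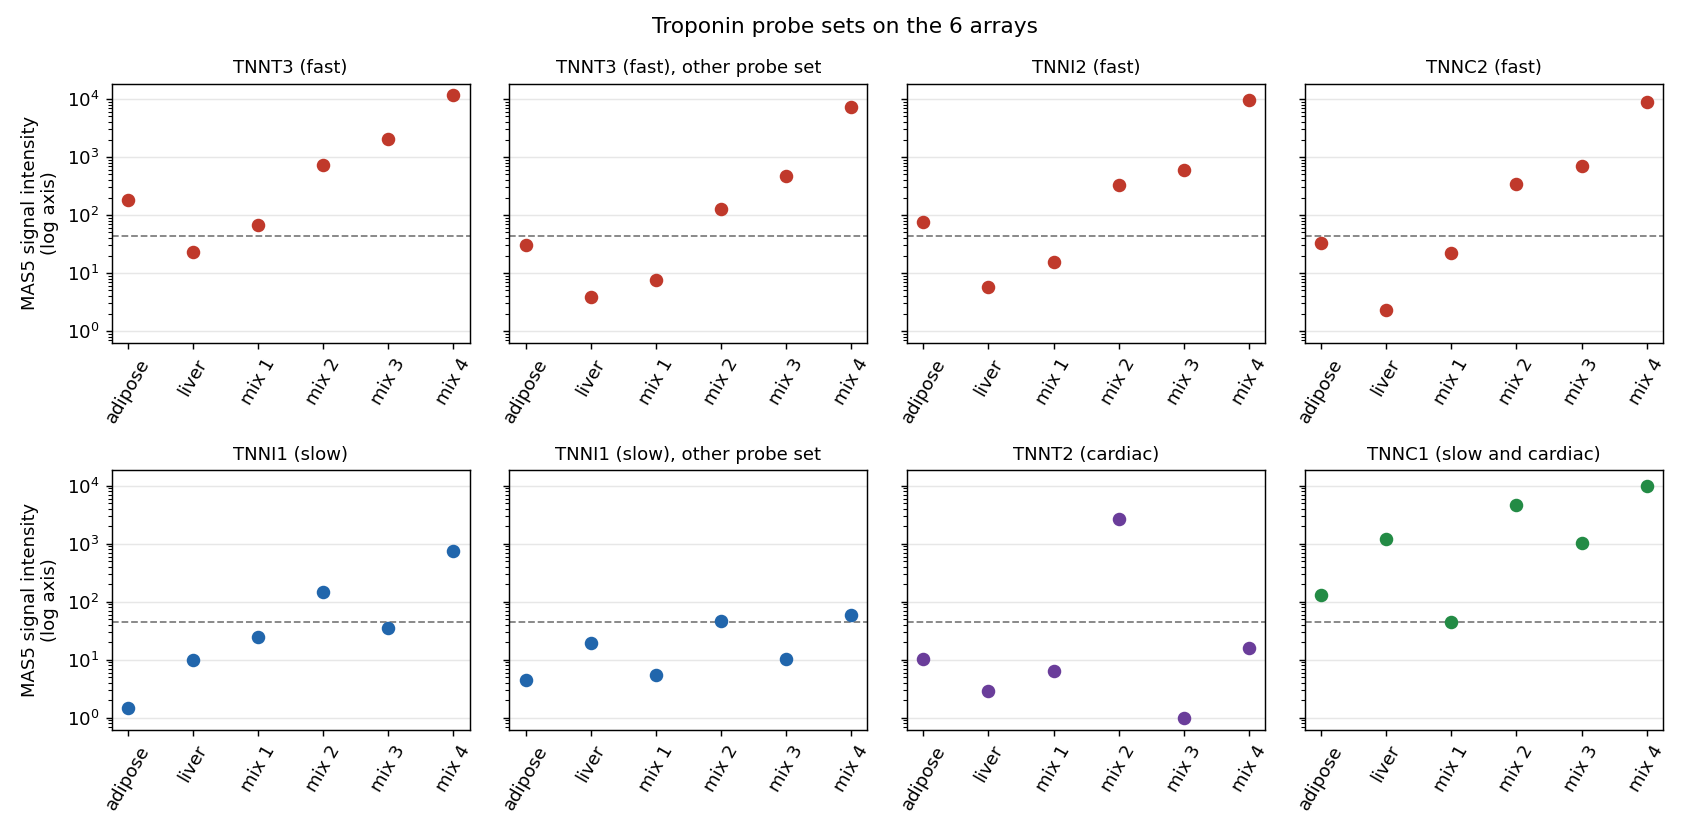
MAS5 signal intensity (log axis) of the 8 troponin probe sets on each of the 6 arrays, 1 point an array, with the isoform class in each title and the pooled median of 44.1 as a dashed line. The fast genes peak on mix 4 and have their lowest point on liver, TNNT2 stands above the line on mix 2 alone, and TNNC1 is at 1203 on liver.

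By count, 5 of the 6 genes were brightest on mix 4, where 28.2% of all probe sets tested were, and 1 was brightest on mix 2 (6.75% of all). At least 4-fold above each of the other 5 arrays on the log2 scale were 4 genes on mix 4 (TNNT3, TNNI2, TNNC2 and TNNI1), against 2.8% of all probe sets, and TNNT2 on mix 2, against 0.539%. TNNC1 fell short with a margin of 1.08 over mix 2. TNNI1 counts by its brighter probe set, since the other had a margin of 0.27. The count on mix 4 was 3 with quantile scaling, with trimmed-mean scaling or with probe sets averaged. Each array is a single sample with no replicate, so these differences between mixes were not tested.

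Between mix 4 and mix 2 the genes parted by isoform. The difference of mix 4 minus mix 2 was 3.98 for TNNT3, 4.80 for TNNI2 and 4.66 for TNNC2, then 2.24 for TNNI1, 1.08 for TNNC1 and -6.51 for TNNT2, on the log2 scale. The fast genes thus lay highest and the cardiac gene lowest. The place of TNNI1 over TNNC1 rests on its brighter probe set, since the other gave 0.27. At least 4-fold higher on mix 4 than on mix 2 were 4 of 6 genes (5.65% of all probe sets), and at least 4-fold lower was 1 (2.0% of all). Between mix 4 and mix 3 the difference was 2.49, 3.94 and 3.65 for TNNT3, TNNI2 and TNNC2, 3.97 for TNNI1 and 3.25 for TNNC1, and no such order showed. There 5 of 6 genes were at least 4-fold higher on mix 4 (7.86% of all), and TNNT2 was under the mark for a faint signal on both.

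**Figure D2:**
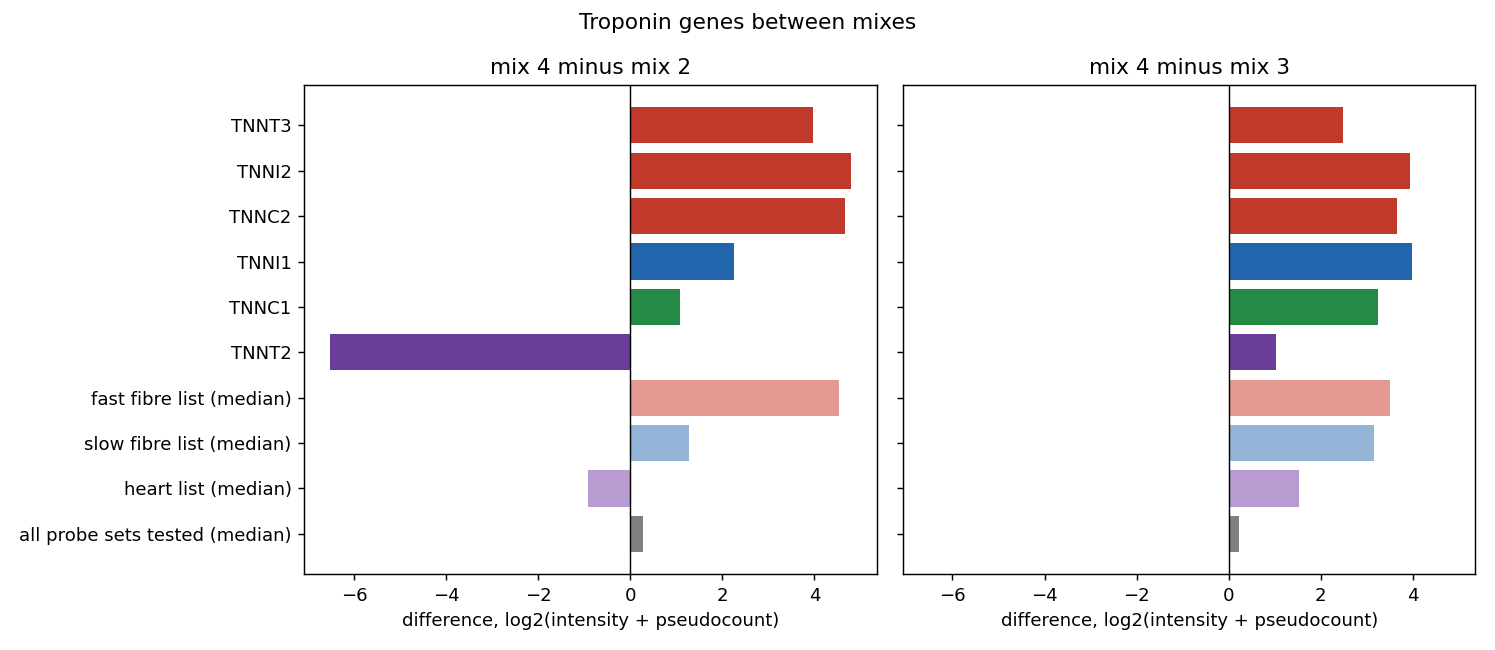
Difference on the log2(intensity + 13.3) scale of mix 4 minus mix 2 (left) and mix 4 minus mix 3 (right) for each troponin gene, with the medians of the fast fibre, slow fibre and heart lists and of all 25958 probe sets tested. Against mix 2 the bars run from 4.80 for TNNI2 to -6.51 for TNNT2, and against mix 3 all bars are above 0.

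The fast gene of a subunit can be set against the slow gene of the same subunit within an array, and that gap then compared between arrays. Only changes of the gap are meaningful, since 2 probe sets have no common scale. The gap of TNNI2 minus TNNI1 was 3.64 on mix 4, 1.09 on mix 2 and 3.67 on mix 3, so that fast over slow troponin I was 5.86 times as high on mix 4 as on mix 2 and 0.981 times as high on mix 4 as on mix 3. In plain intensity, without the added 13.3, these changes were 5.68 times and 0.740 times, since the addition weighs on the faint TNNI1. The gap of TNNC2 minus TNNC1 was -0.12 on mix 4, -3.70 on mix 2 and -0.52 on mix 3, which puts the ratio at 12 times between mix 4 and mix 2 and 1.32 times between mix 4 and mix 3 (12.4 and 1.33 times in plain intensity). For troponin T the cardiac gene was set against the fast one: TNNT2 minus TNNT3 was -8.62 on mix 4 and 1.87 on mix 2, a change of -10.49. Relative to mix 4, mix 2 thus leaned to the slow or shared gene in both the calcium sensor and the inhibitor, and mix 3 lay near mix 4. A lean to TNNC1 was not particular to mix 2: TNNC2 minus TNNC1 was -6.28 on liver, -1.62 on adipose and -0.71 on mix 1. TNNI2 minus TNNI1 was -0.29 on liver, 2.57 on adipose and -0.43 on mix 1. Both TNNC2 and TNNI1 lay under 44.1 on liver, adipose and mix 1. TNNI1 was only 35.3 on mix 3, and with its other probe set averaged in, the change between mix 4 and mix 3 for troponin I was 1.15 in place of -0.03.

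Genes that work beside troponin in fast fibres had the same peak. Of 14 fast fibre genes in a fixed list 10 had a probe set and 9 were tested, and all 9 were brightest on mix 4 (28.2% of all). They were also all at least 4-fold higher there than on mix 2, with a median difference of 4.53 against 0.29 over all probe sets. The full order of the fast troponins, with its faint lower end, was shared by only 2 of these 9 (0.601% of all). MYL1, the fast essential light chain, gave 84.7 on adipose and 27.7 on liver, against 25.1, 588.9, 1586 and 12578 on mix 1, 2, 3 and 4. The myosin heavy chain MYH1E gave 86.8 on adipose and 8.6 on liver, against 7.1, 131, 454 and 10114. The light chain MYLPF reached 6773 and MYBPC2, a myosin-binding protein of fast fibres, 3948 on mix 4, against at most 256 and 184 elsewhere.

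The slow fibre genes were divided between mix 4 and mix 2. All 10 had a probe set and 9 were tested. Of these 6 were brightest on mix 4 (28.2% of all probe sets), 2 on mix 2 (6.75% of all) and 1 (TPM3) on mix 1. The light chains MYL2 and MYL3, which slow fibres share with the ventricle, gave 126 and 2037 on mix 4, against 4933 and 3927 on mix 2. The calcium pump ATP2A2 gave 3214 on mix 4 and 1325 on mix 2, with 184.5 on liver. At least 4-fold higher on mix 4 than on mix 2 were 4 of the 9, against 5.65% of all probe sets. These were MYH7B, MYBPC1, CASQ2 and ANKRD2, with differences of 2.98 to 4.34 that overlap those of the fast troponins. At least 4-fold lower was 1, MYL2, against 2.0% of all. The list's median difference of mix 4 minus mix 2 was 1.27, between the 2.24 of TNNI1 and the 1.08 of TNNC1.

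Heart genes led on mix 2, beside TNNT2. Of 21 in the list 16 had a probe set and 14 were tested. Brightest on mix 2 were 7 (6.75% of all probe sets), 4 on mix 4 (28.2% of all), and 1 each on liver, mix 1 and mix 3. Of these 7, TNNI3K led by little, at 311 on mix 2 and 285.5 on mix 1. NPPA, the atrial natriuretic peptide, gave 5062 on mix 2 and at most 205 elsewhere, and the ventricular myosin MYH15 gave 3141 and at most 36.4 elsewhere. ACTC1, the cardiac actin, gave 1597 on mix 4, against 5760 on mix 2 and at most 143 on the other arrays. ANKRD1, a stress-responsive protein of heart and skeletal muscle, went the other way, at 3634 on mix 4 and 152 on mix 2. TNNI3, the cardiac troponin I, was in the list and had no named probe set.

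**Figure D3:**
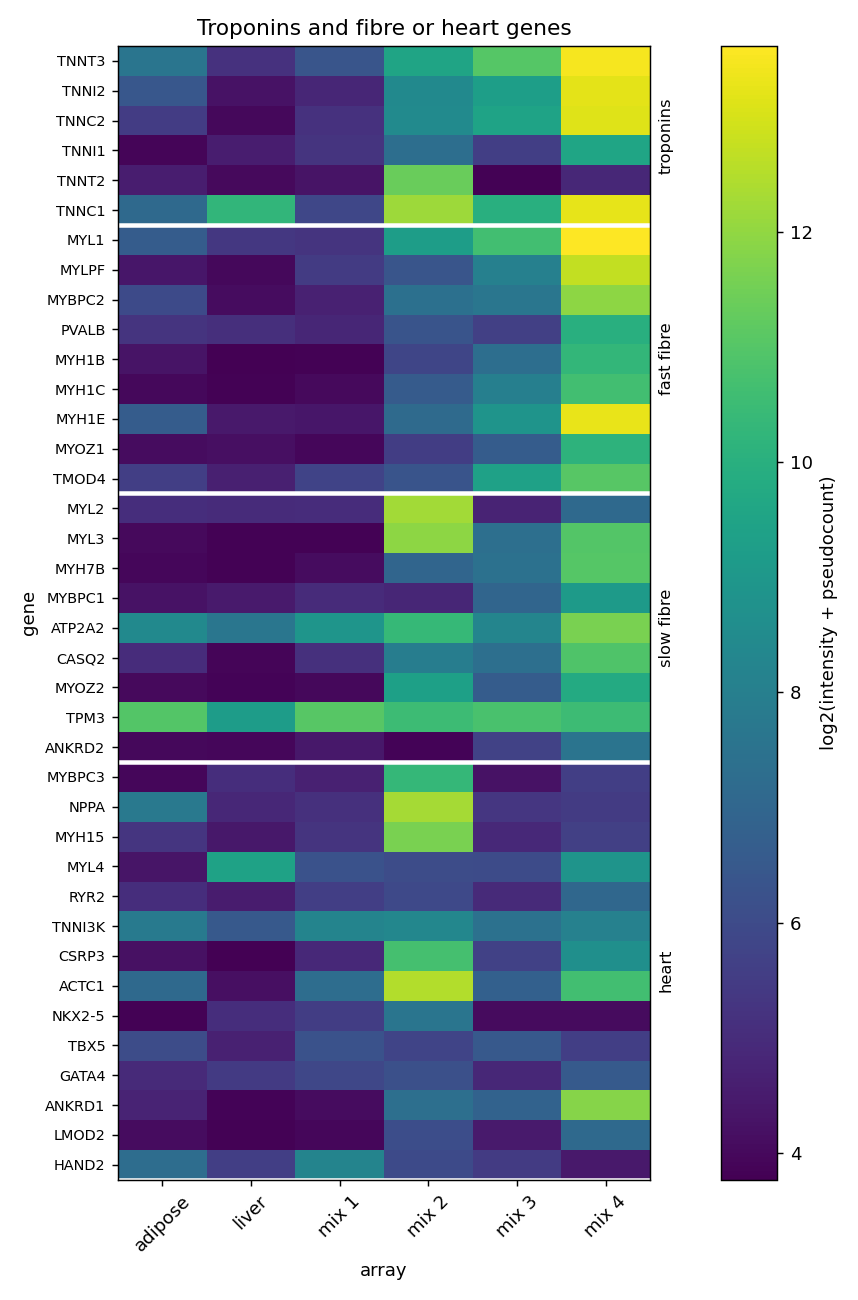
Level on the log2(intensity + 13.3) scale (colour) of the 6 troponin genes and of the tested genes of the fast fibre, slow fibre and heart lists (rows) on the 6 arrays (columns). The 3 fast troponins and all 9 fast fibre genes are brightest on mix 4, and TNNT2 is bright on mix 2 with NPPA, MYH15 and MYL2.

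Among 16 tested genes of striated muscle in general, 13 were brightest on mix 4, as were 28.2% of all probe sets. ACTA1, the skeletal actin to which troponin is tied, gave 1061 on adipose and 78 on liver, against 933, 2923, 5012 and 15770 on mix 1, 2, 3 and 4, the last being the highest intensity of that array. The Z-disc protein ACTN2 reached 5544 there. The exceptions were MYOM1 on mix 2 and, on mix 1, DES (4724) and the oxygen store MB (11646).

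The other thin filament partners did not share one pattern. Of 12 tested, 5 were brightest on mix 4 (28.2% of all probe sets), 3 on mix 1, 2 on mix 2 (6.75% of all) and 2 on adipose. TPM1 and TPM2, the tropomyosins on which troponin T sits and which smooth muscle makes too, were brightest on mix 1 at 11866 and 10813, against 3889 and 4808 on mix 4. Most smooth muscle genes had their peak there: 5 of 6 tested were brightest on mix 1, among them ACTG2 (15875), MYH11 (9761), TAGLN (10855) and MYLK (11116). The exception was the smooth muscle actin ACTA2, which was lowest on mix 1 (4.4) and brightest on adipose (51.5). The share of all probe sets brightest on mix 1, adipose or liver was not counted. On mix 1 the 6 troponin genes lay between 6.3 for TNNT2 and 68.5 for TNNT3.

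Among 11 tested regulators of muscle genes, 7 were brightest on mix 4, as were 28.2% of all probe sets. MEF2A gave 1678 and MEF2D 2299 on mix 4, against at most 1334 and 1236 elsewhere, and TEAD4 was brightest on adipose (864). PROX1, a liver factor that in mice also acts in slow fibres and heart, was brightest on liver (1244).

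Genes of other organs also stood out on mix 4 and on mix 2, and their part in the differences was not tested. On mix 4, 8 of 9 tested brain genes were brightest (SNAP25 8799, SYP 3017, GRIN1 2402 and STMN2 5573), as were 28.2% of all probe sets. The summed intensity of the 9 was 24049 there against 457 to 1086 on the other arrays. The exception was MBP, at 962 on liver, 926 on adipose and 553 on mix 4. On mix 2 all 7 pancreas genes were brightest (CPA1 18291, CPB1 14412, CEL 14719 and CELA1 13164), as were 6.75% of all probe sets. Their sum was 98403 there, against 171 to 6624 elsewhere. The 8 hepatocyte genes summed to 9889 on mix 2 and 7616 on mix 4, against 463 on mix 3. On mix 1 they summed to 6084, of which APOA4 gave 5787. The part of liver-type signal in the TNNC1 values on the mixes was not tested.

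By likeness of pattern the fast genes drew close to each other. Across the 6 arrays Pearson's r on the log2 scale was 0.990 between TNNT3 and both TNNI2 and TNNC2 and 0.992 between TNNI2 and TNNC2. TNNI1 stood at 0.819 to 0.887 with these, TNNC1 at 0.673 to 0.724 and TNNT2 at 0.156 to 0.177. These are descriptions over 6 arrays that the genes share, and 1 bright array weighs heavily in each. MYL1 was among the 5 most similar of 11599 other genes for each of the 3 fast genes (r 0.989, 0.990 and 0.990). For TNNI2 MYBPC2 (0.992) and the muscle phosphofructokinase PFKM (0.991) were also among them, with CEP162 (0.993) and SNAP91 (0.986). For TNNC2 the others were SH2B1 (0.996), ACSL6 (0.989), MYH1C (0.989) and MYH7B (0.989), and for TNNT3 SLC7A5 (0.989), RFC3 (0.986), HSP90AB1 (0.985) and SH2B1 (0.983). SH2B1 spanned only 33.3 to 82.4 in intensity, since r ignores the size of a change.

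For TNNT2 the most similar genes were SLC12A1 (r 0.999), the sodium-potassium-chloride transporter of the kidney, DNASE1 (0.996), MYH15 (0.996), TMEM174 (0.995) and LOC101749201 (0.994). SLC12A1 gave 2232 on mix 2 and at most 21.4 elsewhere, so the likeness is to what stood out on mix 2 and not to heart genes only. For TNNI1 they were LOC395159 (0.999), SLAIN1 (0.993), LRRC39 (0.990), SCRN1 (0.989) and SH3BGR (0.988). For TNNC1 they were CCDC103 (0.984), FABP7 (0.960), B3GALNT2 (0.959), SALL3 (0.949) and AP5Z1 (0.942), with no gene over 0.99.

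In the chicken assembly GRCg7b TNNT3 and TNNI2 lie on the same chromosome with 3 annotated genes between them, and TNNI1 and TNNT2 on another with 2 between them. TNNC1 and TNNC2 have no other measured troponin gene on their chromosomes. The first pair had r 0.990 over the 6 arrays and the second 0.371, with TNNI1 brightest on mix 4 and TNNT2 on mix 2.

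The study asked which genes are more highly expressed in adipose tissue and liver, and each troponin gene was set against the mixes for both. By limma against the 4 mixes, with adjustment over 25958 probe sets, 0 of the 6 genes passed on adipose (0.0% of all passed, and 7.34% at an unadjusted p under 0.05, 0 of the troponin genes among them). All 6 were lower on adipose than the mean of the mixes, as 44.9% of all probe sets were, and 1, TNNI1, lay below all 4 mixes (15.7% of all). The differences of adipose minus the mixes were -2.51 (SE 2.47) for TNNT3, -2.49 (SE 2.84) for TNNI2 and -3.53 (SE 2.71) for TNNC2. They were -3.06 (SE 1.66) for TNNI1, -1.53 (SE 2.94) for TNNT2 and -3.17 (SE 2.69) for TNNC1, with adjusted p of 0.836 to 0.966 over the 6 genes by limma. The SD of the mixes was 1.97 to 3.55 on the log2 scale for these genes, against a median of 0.478 over all probe sets, so that the test could not separate a lone array from them. Without mix 2 the value for TNNT2 was 0.23 in place of -1.53. For TNNI2 it was -1.06 without mix 4 and for TNNC2 -2.17, and for TNNT3 it was -1.38. With both its probe sets averaged TNNI1 stood at -2.06.

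On liver 0 of the 6 genes passed limma either, where 0.0693% of all probe sets did, and 0 had an unadjusted p under 0.05 (19.8% of all). On liver, too, all 6 values were under the mixes' mean, as for 83.5% of all probe sets. The fast genes had the lowest values: -4.91 (SE 2.47) for TNNT3, -4.69 (SE 2.84) for TNNI2 and -5.10 (SE 2.71) for TNNC2, against a median of -0.75 over all probe sets. In the same order they stood at -3.77, -3.26 and -3.74 without mix 4 and at -6.15, -6.06 and -6.40 without mix 1. With values floored at the pooled median they stood at -4.56, -3.61 and -3.65. TNNI1 stood at -2.41 (SE 1.66) and TNNT2 at -2.08 (SE 2.94), and the adjusted p of these 5 genes were 0.305 to 0.668 by limma. Without mix 2 TNNT2 stood at -0.32. Without mix 4 TNNI1 stood at -1.53, and with both its probe sets averaged at -1.30. TNNC1 stood at -0.07 (SE 2.69, adjusted p = 0.988), above the -0.75 of all probe sets. Its sign turned with the processing, at 0.90 without mix 4, 0.54 without mix 2, 0.52 with trimmed-mean scaling and 0.12 with quantile or spike-in scaling. Without mix 1 it kept its sign, at -1.56. TNNT3, TNNI2, TNNC2 and TNNI1 lay below all 4 mixes on liver, as 60.5% of all probe sets did, so that the count says little of troponin. By its other probe set TNNI1 did not, at 19.3 on liver against 5.4 on mix 1 and 10.4 on mix 3. Its difference there was -0.20. Other scalings put the median of all probe sets on liver at -0.09 (quantile), -0.26 (trimmed mean) or -0.60 (spike-ins).

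**Figure D4:**
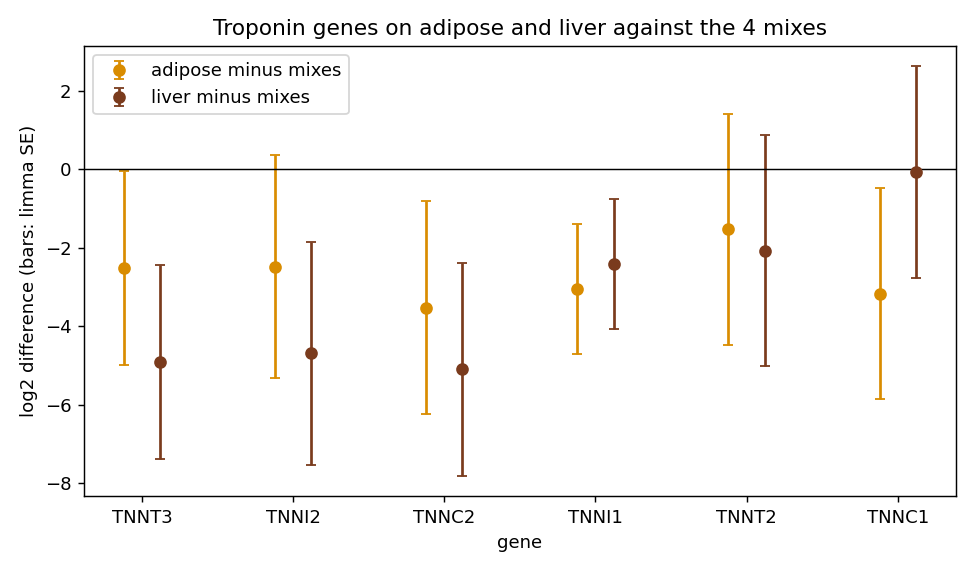
Difference on the log2(intensity + 13.3) scale of adipose and of liver minus the mean of the 4 mixes for the 6 troponin genes, with the SE from limma as bars. No gene passed at an adjusted p of 0.05, and TNNC1 on liver is the value nearest 0 (-0.07).

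Adipose was also set against liver by size, without a test, where the median over all probe sets was 0.78. Adipose minus liver was 2.40 for TNNT3 and 2.20 for TNNI2, both at least 4-fold, as were 11.9% of all probe sets, and 1.57 for TNNC2. It was -0.65 for TNNI1 and 0.55 for TNNT2. TNNC2, TNNI1 and TNNT2 were under 44.1 on both arrays, and TNNT3 and TNNI2 on liver. TNNC1 was at least 4-fold lower on adipose (-3.10), as were 2.72% of all. Over the 9 fast fibre genes tested the median of adipose minus liver was 0.51, under that of all probe sets. Their values ran from -0.08 for MYOZ1 to 2.19 for MYH1E. Of these 9 genes 3 exceeded 44.1 on adipose and 0 on liver, where 76.7% and 57.9% of all probe sets tested did so.

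On liver TNNC1 was the 1 measured troponin gene above 44.1. TNNT3, TNNI2, TNNC2, TNNI1 and TNNT2 gave 2.3 to 23.1 there, while TNNT1 and TNNI3 were not measured. The tropomyosins TPM1 and TPM2, which other cells make too, gave 1074 and 756. Of 9 slow fibre genes 2 exceeded 44.1 on liver (ATP2A2 184.5 and TPM3 577), and of 14 heart genes 2 did (MYL4 674 and TNNI3K 77.8). MYL4, the atrial and embryonic light chain, was brightest on liver of all arrays, against 455 on mix 4. The heart and slow fibre genes MYL2, MYL3, NPPA, MYH15 and ACTC1 gave 0.8 to 18.3 on liver.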

How the data were processed

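Total RNA of the 6 samples was labelled as biotin cRNA and hybridised to Affymetrix chicken arrays, 1 array a sample, per the labels' protocols. The authors deposited signal intensity per probe set on a linear scale, made with MAS5 per the submitters' processing notes; for its version and scaling target the sources used here give nothing. Groups came from the sample titles. Of 38535 probe sets 96 controls were left out, and 25958 were tested, those with 1 or more arrays above the pooled median of 44.1. Values were turned into log2(intensity + 13.3), with no further scaling. The platform's annotation gave 27168 probe sets 1 symbol, 177 several and 11094 none; only the first were named, and for a gene the probe set with the highest mean log2 value was used. Adipose and liver were each compared with the 4 mixes by limma 3.58.1 in R 4.3.3 (two-sided, eBayes with a trend, Benjamini-Hochberg over all tested probe sets, 0.05). The residual spread, with 3 degrees of freedom, is that among the mixes, and a lone array is assumed to vary like them. The mixes differ in content, and the labels do not name separate birds, so the p-values measure only the spread between these samples. The fit was tested on simulated data in which every array had the spread of the mixes. It could therefore not test whether a lone array varies like them.

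The troponin genes and the 11 gene lists were chosen with earlier results of these data known. Named were all members, of each list the up to 4 genes with the highest intensity on any array, and for each member the 5 genes with the highest Pearson r. Other list genes named (ADIPOQ, MYBPC1, MYL4, TNNI3K and MYOM1 among them) were exceptions or small counts chosen after their values were seen. Alternatives were the pseudocount, a floor, the filter, 3 scalings, the mean over probe sets and leaving out each mix. Array number limits the precision. Probe, promoter and protein sequences, and motifs in them, were not analysed here.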

Additional observations from a re-analysis of the deposited data

Results flagged for a closer look

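Among the 4 mixes TNNT2 on mix 2 stood far from the other 3 on the log2 scale: its gap to the nearest was 0.863 of the whole range, over Dixon's 95% critical value for 4 samples. It was the 1 of 8 troponin probe sets to do so. TNNT2 passed the filter through mix 2 alone, and the other 3 mixes were under 44.1 and are drawn together by the added 13.3, so this adds nothing to the values themselves. Of the 42 list genes named by rule, chosen for a high intensity on some array, 5 did the same: NPPA (0.951) and MYH15 (0.89) on mix 2, and SNAP25 (0.956), SYP (0.866) and GRIN1 (0.981) on mix 4. Chance sets apart about 1 in 20 groups, and 7.02% of all probe sets tested passed this mark.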

How the results depend on the processing

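The 12 differences of a troponin gene on adipose or liver against the mixes kept their direction in 125 of 132 alternative values, and 0 passed the threshold. Not all of the 132 could turn. Dropping the filter leaves each difference as it was, and averaging probe sets changes only TNNT3 and TNNI1. The 7 that turned were TNNT2 on adipose without mix 2 (0.23) and TNNC1 on liver with the floor (0.012), quantile (0.12), trimmed-mean (0.52) and spike-in scaling (0.12), without mix 2 (0.54) and without mix 4 (0.90). Leaving out 1 mix moved TNNT2 on adipose between -2.28 and 0.23 and TNNC1 on liver between -1.56 and 0.90, the mixes left out having bright or faint values of their own; the other causes were not tested. The count of troponin genes brightest on mix 4 was 5 under all 6 alternatives run, and 3 or 4 were at least 4-fold above every other array. The pseudocount and the floor could not change which array was brightest, since they keep the order of the arrays above the floor.

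Over all probe sets limma called 0 on adipose in the reported fit and 671 with values floored at the pooled median. The floor makes all values under it equal, and its part in the 671 was not tested. On liver limma called 18, and 84 with the median as pseudocount, 204 with the floor, 32 without the filter and 77 with trimmed-mean scaling. The cause was not tested there either. Leaving out 1 mix gave 0 to 0 on liver, at 4250 to 4710 unadjusted. None of these counts bears on a troponin gene, since 0 of them passed in any fit.

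The change of TNNI2 minus TNNI1 between mix 4 and mix 2 (2.55) was 3.54 with the mean of all probe sets. Between mix 4 and mix 3 (-0.03) it was 0.56 with the median as pseudocount and 1.15 when all its probe sets are averaged, TNNI1 being faint on mix 3. The change of TNNT2 minus TNNT3 between mix 4 and mix 2 (-10.49) was -9.42 with the median as pseudocount, -9.92 with the floor and -11.35 when probe sets are averaged. The change of TNNC2 minus TNNC1 moved by less than 0.478, the median SD of the mixes. No paired analysis was possible because adipose and liver have 1 array each and their titles carry no mix number. Signal over background limits the faint values: under 44.1 lay TNNT2 on 5 arrays and TNNI1 on 4. TNNC2 was above it on only 3 arrays, TNNI2 on 4 and TNNT3 on 5, and liver lay under it for each of these fast genes.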

Other observations

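TNNI3K, a kinase named for its binding to cardiac troponin I, was brightest on mix 2 as TNNT2 was, but only a little above mix 1. Its brightest probe set gave 207 on adipose and 77.8 on liver, against 285.5, 311, 160.6 and 258 on mix 1, 2, 3 and 4. The oxygen store MB was apart from the troponins, at 2.1 on adipose and 3.2 on liver, against 11646, 2671, 81.9 and 771 on the mixes, with its peak on the array where TNNC1 was faintest (45). The early myogenic factor MYOD1 was brightest on mix 4 (546) as the fast troponins were, against at most 35.9 elsewhere.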
